A study of Mus musculus with 367 samples.

Results

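A set of 10 genes that encode receptor chains for inflammatory cytokines was followed in single cells of healing mouse skin. They are Il1r1, Il1rl1, Il4ra, Il13ra1, Il11ra1, Il6ra, Il10ra, Tnfrsf1a, Tnfrsf1b and Ifngr1, chosen by name with earlier results of these data known. All 10 were found with exactly 1 identifier among the 50600 gene identifiers of the expression tables. The cells came from Sm22-Cre;tdTomato mice of a mixed background, 3 to 8 weeks old, that carried excisional wounds of 1.5 cm a side on the back. Sm22-Cre drives Cre recombinase from the promoter of Tagln, so that tdTomato marks cells in which that promoter is or was active. Cells that were viable and tdTomato-high were sorted from wound tissue of 2 to 3 animals per time point, at post-wounding day (PWD) 12, 15 and 21, and captured on Fluidigm C1 chips for full-length cDNA sequencing. There were 3 captures at PWD12 and 2 each at PWD15 and PWD21, with 367 cells in all, of which 292 passed the filters on depth, gene number and mitochondrial share. All groups carry the same alleles and the same wound, and none is unwounded, untreated or tdTomato-negative.

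The 292 cells were assigned to kinds by 3 genes that are not receptors. Matrix cells (198) had at least 1000 FPKM of the collagen gene Col1a1, less than 100 of the pericyte gene Rgs5 and less than 50 of Tyrobp, a myeloid adaptor. Mural cells (57) had at least 500 FPKM of Rgs5 and less than 50 of Tyrobp, and myeloid cells (26) had at least 500 FPKM of Tyrobp. The other 11 cells met none of these rules. Markers that were not used for the rules followed the names to differing degrees. The fibroblast receptor gene Pdgfra was above 0 in 171 of 198 matrix cells and 17 of 57 mural cells, the pericyte channel gene Kcnj8 in 42 of 57 mural cells and 5 of 198 matrix cells, and the macrophage gene Cd68 in 26 of 26 myeloid cells. Other markers separated the kinds less by detection. The mural gene Pdgfrb was above 0 in 57 of 57 mural and 183 of 198 matrix cells, with means of 140 and 29.65 FPKM. The mural gene Cspg4 was above 0 in only 22 of 57 mural cells. The collagen gene Col3a1 was above 0 in all 198 matrix, all 57 mural and 24 of 26 myeloid cells. Col1a1 did not separate the kinds fully, since 19 of 57 mural cells and 4 of 26 myeloid cells also had at least 1000 FPKM of it. The receptor and list tests that name myeloid cells are therefore given also without those 4 cells, called doubtful below. This choice was made after the data were seen, and it leaves capture 2 of PWD15 with 2 myeloid cells and drops it from the fit. The 4 cells were picked by a gene that defines matrix cells. A lower myeloid level of genes high in matrix cells is therefore no separate support in this setting. The source of the Col1a1 RNA was not tested, and no test left out the 19 mural cells for it. Tagln itself was above 0 in 128 matrix, 50 mural and 3 myeloid cells.

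Cytokine receptors sit in the plasma membrane and start signalling when a ligand brings their chains together. IL-1 and IL-33 are bound by the products of Il1r1 and Il1rl1 (ST2), and both use the accessory chain encoded by Il1rap to engage MyD88 and NF-κB. IL-4 and IL-13 act through Il4ra paired with Il2rg or Il13ra1, IL-6 and IL-11 through Il6ra or Il11ra1 with the shared gp130 chain encoded by Il6st, and IL-10 and interferon gamma through Il10ra with Il10rb and Ifngr1 with Ifngr2, all by way of JAK kinases and STAT factors. The death domain receptor Tnfrsf1a is found on most cell types and Tnfrsf1b mainly on leukocytes and endothelium. In wounds, IL-4 receptor signalling is known for its part in alternative macrophage activation and collagen assembly, IL-10 for restraint of inflammation, and IL-11 for activation of fibroblasts.

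The genes lie on 8 chromosomes of the mouse genome (mm10), and some of them have more than 1 listed start, between which a value per gene does not distinguish. Il1r1 (chr1:40225080-40317257, forward strand) and Il1rl1 (chr1:40429570-40465415, forward strand) belong to one cluster with Il1r2, Il1rl2 and Il18r1 between chr1:40074079 and chr1:40500854. Il1rl1 has a distal start, known for its use in mast cells and other blood cells, and a proximal start known from fibroblasts, and Il1r1 also has a pair of listed starts. The 250 bases before each start were read from RefSeq promoters on the same build, which held 9 of the 10 genes, all but Il10ra. They were searched on both strands for the GATA factor word GATAAG, the GC box GGGCGG, the CCAAT box, the TATA box word TATAAA, the AP-1 word TGANTCA and the word GAGGAA of PU.1 and other ETS factors, and matches stand in capitals. On the reverse strand GGGCGG reads CCGCCC and CCAAT reads ATTGG. The 4 forward-strand stretches of the IL-1 receptor pair are printed because they differ in which letters they hold. That of Tnfrsf1b is printed as an example from the several receptors whose mean was highest in myeloid cells.
Il1rl1 distal start, chr1:40429320-40429569, forward strand: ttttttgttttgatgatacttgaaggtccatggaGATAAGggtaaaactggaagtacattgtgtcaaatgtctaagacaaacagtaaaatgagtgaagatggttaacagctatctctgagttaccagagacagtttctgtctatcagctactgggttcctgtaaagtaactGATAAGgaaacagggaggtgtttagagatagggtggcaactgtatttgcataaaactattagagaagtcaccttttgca
Il1rl1 proximal start, chr1:40439379-40439628, forward strand: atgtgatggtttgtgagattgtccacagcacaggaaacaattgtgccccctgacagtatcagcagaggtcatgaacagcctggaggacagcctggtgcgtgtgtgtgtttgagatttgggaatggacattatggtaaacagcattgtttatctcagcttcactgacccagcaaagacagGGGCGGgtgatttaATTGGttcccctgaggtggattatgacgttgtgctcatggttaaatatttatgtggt
Il1r1 first start, chr1:40224830-40225079, forward strand: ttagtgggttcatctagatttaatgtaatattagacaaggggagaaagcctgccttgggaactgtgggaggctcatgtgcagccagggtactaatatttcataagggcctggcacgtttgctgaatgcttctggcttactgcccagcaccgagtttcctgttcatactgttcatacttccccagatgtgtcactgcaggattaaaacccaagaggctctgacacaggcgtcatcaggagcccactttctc
Il1r1 second start, chr1:40266336-40266585, forward strand: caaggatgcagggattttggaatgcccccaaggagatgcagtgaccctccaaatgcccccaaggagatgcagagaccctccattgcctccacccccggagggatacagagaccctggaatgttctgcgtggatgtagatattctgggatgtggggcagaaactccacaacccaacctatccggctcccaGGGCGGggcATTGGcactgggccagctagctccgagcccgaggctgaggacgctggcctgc
Tnfrsf1b, chr4:145246871-145247120, reverse strand: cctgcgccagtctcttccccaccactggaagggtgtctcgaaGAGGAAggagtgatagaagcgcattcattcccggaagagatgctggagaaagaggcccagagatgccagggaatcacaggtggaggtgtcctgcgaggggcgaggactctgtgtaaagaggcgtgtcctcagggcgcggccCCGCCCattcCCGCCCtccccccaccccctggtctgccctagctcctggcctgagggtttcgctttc
The distal stretch of Il1rl1 held 2 GATAAG words and no other searched word, while the proximal stretch held 1 GGGCGG and 1 CCAAT. Of 32817 promoter stretches of the same length, 6.55% held GATAAG, 32.7% GGGCGG and 33.8% CCAAT. The first start of Il1r1 held none of the 6 words and the second held 1 GGGCGG and 1 CCAAT. In the Tnfrsf1b stretch there were 2 GGGCGG and 1 GAGGAA, a word found in 23.3% of promoters. GAGGAA was also in the stretch of Il6ra and in that of the second start of Il11ra1, the gene highest in matrix cells. The stretches of Il4ra and Ifngr1, whose means were also highest in myeloid cells, held 0 GAGGAA. The stretch of Il6ra held GATAAG as well. TATAAA and TGANTCA, which were in 12.4% and 6.75% of promoters, were in none of the stretches of the 9 genes. A matching word is a description of the letters, and the deposited values do not separate the starts.

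The unit of the tables is not named in the sources used here, and the values were read as FPKM, in which fragment numbers are divided by transcript length and by sequencing depth. Cell totals ran from 582314 to 1662040, unlike the fixed total of TPM, and over 6062 genes with 1 transcript the lowest value above 0 fell with transcript length (Spearman's rho = -0.45, across genes, which are not independent replicates). Levels are compared between genes on that reading. The fragments of a cell, estimated from the steps between its values, had a median of 1462274 and ranged from 171791 to 8035261. The medians were 1462274 in matrix, 1216186 in mural and 2102228 in myeloid cells. Very low values occurred in cells without the gene's usual expression, since the B cell gene Ms4a1 was above 0 in 49 of 198 matrix cells with a highest value of 6.46 FPKM, while the T cell gene Cd3e was at 0 in every cell of the 3 kinds. The share of cells with at least 5 FPKM is therefore given first, and the share above 0 second. Intervals of shares are exact Clopper-Pearson intervals at 95% and cover counting error only. For tests, the FPKM of the cells of a kind were averaged within a capture with at least 3 such cells, which gave 7 matrix, 5 mural and 4 myeloid class means, and log2(mean FPKM + 1) was compared in limma with the capture as a block. For kinds the p-values measure how far the difference between kinds varied from capture to capture. For days they measure the spread between captures. Either may be technical, because it is not stated whether captures held different mice. Only 2 captures held both myeloid and mural class means, so that comparison also draws on the matrix cells. Fewer cells with a transcript and less transcript per cell cannot be told apart in a class mean.

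By mean FPKM over all cells of a kind, Il1r1 and Il13ra1 were highest in mural cells, Il11ra1 and Il1rl1 in matrix cells, and Il4ra, Il6ra, Il10ra, Tnfrsf1b and Ifngr1 in myeloid cells, while the order of Tnfrsf1a changed with the settings. All 10 passed the filter on low values, Il6ra and Il10ra only through the myeloid cells, so these 2 had to be higher there and are described without a test. Counts are therefore given over the other 8 receptors, beside the genes that pass the filter without either of the kinds compared, with p-values adjusted over all 14022 genes tested. The receptors and the lists below were chosen with earlier results of these data known. Their counts are set beside the shares of all genes as a description only. Between myeloid and matrix cells 3 of the 8 passed an adjusted p of 0.05 in limma, 1 higher (Tnfrsf1b) and 2 lower (Il1r1 and Il11ra1) in myeloid cells, against 15.7% of 12059 such genes, 2.14% higher and 13.6% lower. Between myeloid and mural cells 3 passed, 2 higher (Il4ra and Tnfrsf1b) and 1 lower (Il1r1) in myeloid cells, against 5.95% of 12535 genes, 1.36% higher and 4.6% lower. Between mural and matrix cells 0 of the 8 passed, against 0.721% of 11925 genes. There 3 of the 8 (Il1r1, Il1rl1 and Il11ra1) had an unadjusted p under 0.05, beside 9.48% of those genes. The median of all genes was shifted by -0.25 for mural against matrix, -0.85 for myeloid against matrix and -0.58 for myeloid against mural cells on the log2 scale, so differences are also given less that median. Rescaling every cell to the same total moved the 2 myeloid medians by a further -0.19 and -0.11 and turned no sign of a difference named here. The median fitted difference of the 8 genes was 0.36 for myeloid against matrix, 0.12 for myeloid against mural and -0.78 for mural against matrix cells. The genes that pass the filter without either of the kinds compared had -0.86, -0.60 and -0.23. For mural against matrix cells that rule keeps all 10 receptors, whose median was -0.71.

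**Figure D1:**
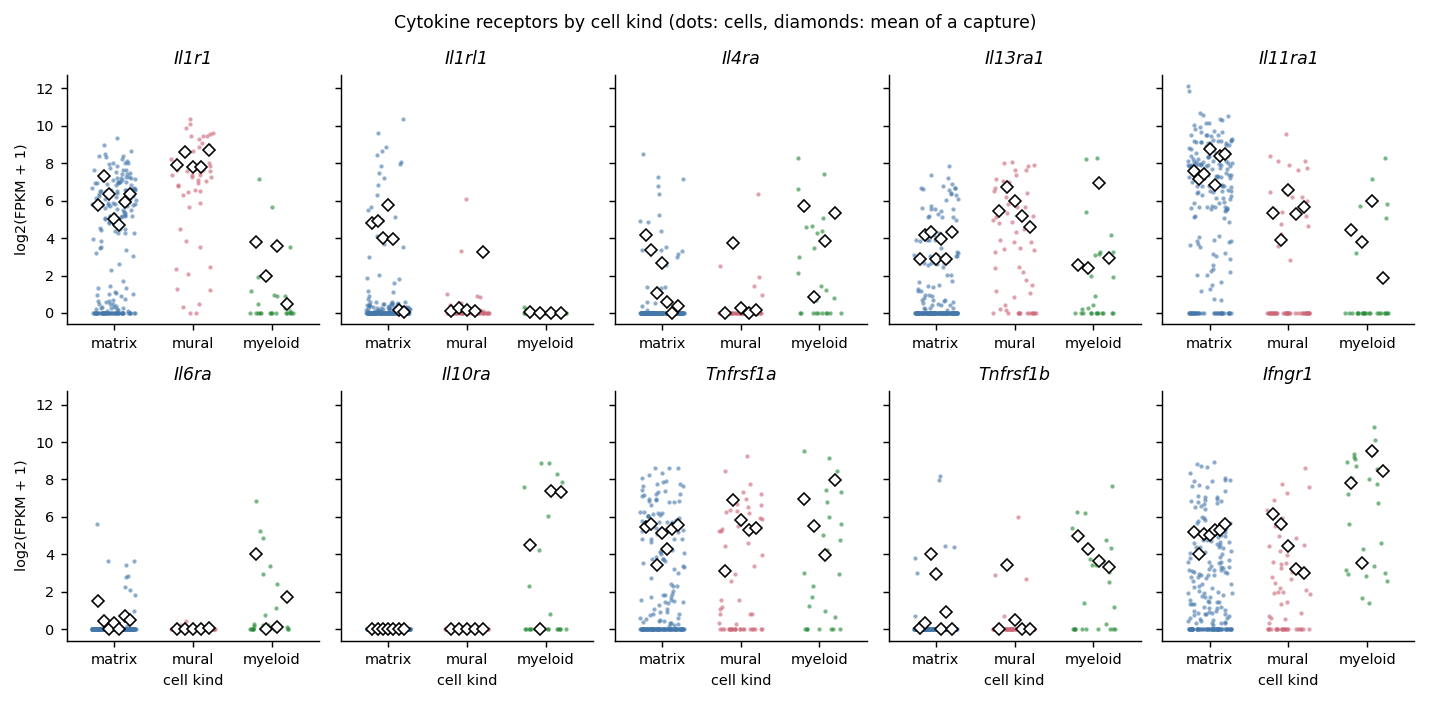
Level of each receptor gene as log2(FPKM + 1) in matrix, mural and myeloid cells, with a dot for each cell and a diamond for the log2 of the mean FPKM plus 1 of each capture with at least 3 cells of the kind (7, 5 and 4 captures). Il1r1 in mural cells lies between 220.8 and 417.7 FPKM, above every matrix and myeloid capture, and Il10ra is at 0 in every matrix and mural capture.

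**Figure D2:**
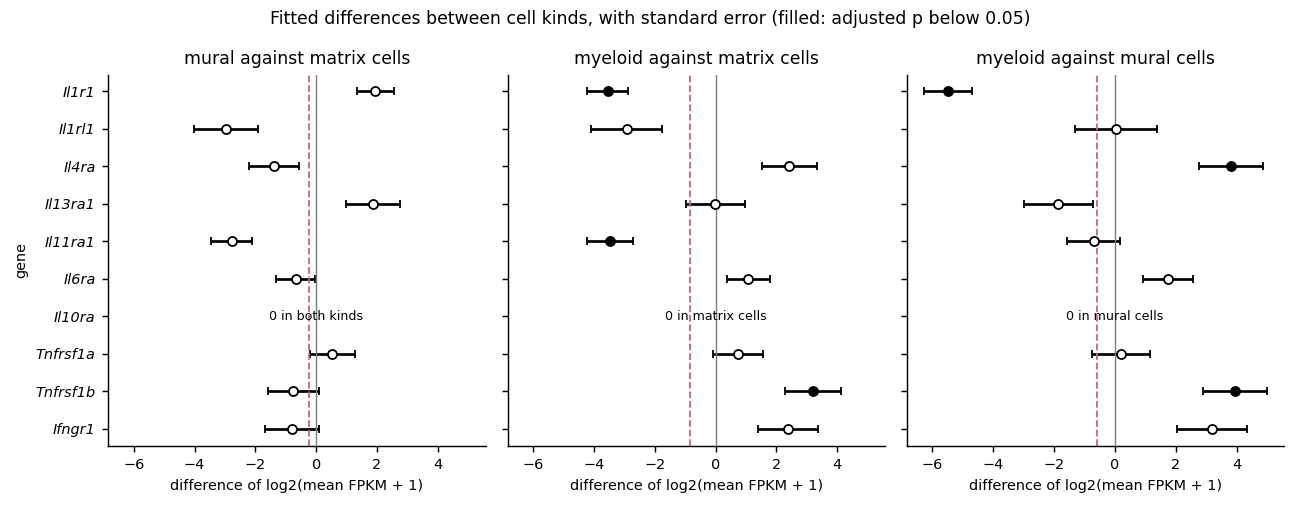
Fitted differences of log2(mean FPKM + 1) between kinds for the 10 genes, with the standard error as the bar, a filled point where the adjusted p is below 0.05 and a dashed line at the median of all 14022 genes. Il10ra has no difference because it was at 0 in matrix and mural cells, Il6ra passed the low-value filter only through the myeloid cells, and 0 of the 9 points is filled in the panel of mural against matrix cells.

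Il1r1, the signalling receptor of IL-1, was the receptor gene with the highest level in mural cells. At least 5 FPKM were found in 48 of 57 mural cells (84.2%, interval 72.1 to 92.5%), 119 of 198 matrix cells (60.1%, 52.9 to 67%) and 3 of 26 myeloid cells (11.5%, 2.45 to 30.2%). Above 0 it was found in 55, 149 and 12 cells. The mural captures had means of 242.4, 385.2 and 221.4 FPKM at PWD12, 220.8 at PWD15 and 417.7 at PWD21. The 7 matrix captures ranged from 25.1 to 158.3 FPKM with a median of 60.8. In the 4 myeloid captures the means were 12.7, 2.91, 10.9 and 0.41 FPKM. Every mural capture was above every matrix capture, and every matrix capture above every myeloid one. The log2 difference of myeloid against mural cells was -5.49 (SE 0.78, adjusted p = 0.000754 in limma), or -4.92 less the median of all genes, and that of myeloid against matrix cells was -3.55 (SE 0.67, adjusted p = 0.00426), or -2.70 less the median. Mural against matrix cells gave 1.94 (SE 0.61), higher in 5 of 5 captures, with an adjusted p of 0.174 that misses the threshold. Without the 4 doubtful myeloid cells the myeloid captures lay between 0 and 1.16 FPKM. The difference in limma was then -5.98 from matrix cells (adjusted p = 0.00016) and -8.09 from mural cells (adjusted p = 4.98e-05). Those cells were left out for a matrix gene, so the lower myeloid level is no separate support.

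Il1rl1, which encodes the IL-33 receptor ST2, was carried by few matrix cells at high levels. At least 5 FPKM were found in 21 of 198 matrix cells (10.6%, interval 6.69 to 15.8%), 2 of 57 mural cells (3.51%, 0.428 to 12.1%) and 0 of 26 myeloid cells, where a share of 11.5% would still be possible. It was above 0 in 79 matrix, 18 mural and 4 myeloid cells, but 52 of those 79 matrix cells were under 1 FPKM. The median of the 21 cells was 113 FPKM, the highest matrix cell had 1332, and the highest 3 cells held 53.4% of the sum over matrix cells. The matrix captures ranged from 0.0494 to 53.6 FPKM with a median of 15.1. The mural captures had 0.0722, 0.223 and 0.124 FPKM at PWD12, 0.0672 at PWD15 and 8.59 at PWD21, and the myeloid captures 0.0455, 0, 0 and 0. Matrix and mural captures overlapped, and the highest mural mean came from 1 cell of 68.4 FPKM. The difference was -2.97 for mural against matrix cells (SE 1.05, adjusted p = 0.239) and -2.92 for myeloid against matrix cells (SE 1.16, adjusted p = 0.103), and neither passed. With that cell, the mean of Il1rl1 over the mural and myeloid captures was 1.01 FPKM, just past the low-value filter. Without capture 1 of PWD21, which held the cell, every mural and myeloid capture was at 0.223 FPKM or lower. Il1rl1 then passed the filter only through the matrix cells, so no test is given for that setting. Without the 4 doubtful myeloid cells the difference between myeloid and matrix cells was -2.62 (adjusted p = 0.216).

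Of the chains of the type 2 cytokine receptors, Il4ra passed the test for myeloid against mural cells and Il13ra1 for no pair of kinds. Il4ra, which binds IL-4 and is shared by both IL-4 receptor forms, was at 5 FPKM or more in 11 of 26 myeloid cells (42.3%, interval 23.4 to 63.1%), 17 of 198 matrix cells (8.59%, 5.08 to 13.4%) and 1 of 57 mural cells (1.75%, 0.0444 to 9.39%). The myeloid captures had 51.5, 0.778, 13.3 and 40.1 FPKM. The mural captures had 0, 12.4 and 0.201 at PWD12, 0 at PWD15 and 0.116 at PWD21, and the matrix captures ranged from 0 to 16.9 with a median of 1.12. The groups overlapped, because the PWD15 myeloid capture lay within the range of both other kinds and 1 mural cell of 80.2 FPKM raised capture 2 of PWD12. Myeloid against mural cells gave 3.80 (SE 1.05, adjusted p = 0.0457 in limma), or 4.38 less the median of all genes, higher in 2 of 2 captures with both kinds. That call was lost when any capture but capture 2 of PWD15 was left out, with adjusted p-values of 0.0334 to 0.155 over the 7 captures, and without the 4 doubtful myeloid cells the adjusted p was 0.107. Against matrix cells the difference was 2.43 (SE 0.90, adjusted p = 0.0839), higher in 4 of 4 captures. An antisense gene, Gm44876, overlaps Il4ra, and since the strand of the library is not stated, reads of both cannot be told apart.

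Il13ra1, the chain that binds IL-13, stood higher in mural cells than in matrix cells in each shared capture. It was at 5 FPKM or more in 33 of 57 mural cells (57.9%, interval 44.1 to 70.9%), 49 of 198 matrix cells (24.7%, 18.9 to 31.4%) and 8 of 26 myeloid cells (30.8%, 14.3 to 51.8%). The mural captures had 42.2, 106.9 and 62.6 FPKM at PWD12, 35.8 at PWD15 and 22.7 at PWD21, and the matrix captures ranged from 6.39 to 19.4 with a median of 14.4. All 5 mural means lay above all 7 matrix means. The difference of 1.86 (SE 0.88) had an adjusted p of 0.422 in limma and did not pass. The myeloid captures had 4.86, 4.31, 122.2 and 6.68 FPKM, and 3 cells held 91.9% of the myeloid sum, so that a level for myeloid cells rests on those cells. The adjusted p of Il13ra1 was 0.995 for myeloid against matrix and 0.367 for myeloid against mural cells, and neither passed without the 4 doubtful cells. Il13ra2, the decoy receptor of IL-13, was above 0 in 2 matrix cells and in 0 mural and 0 myeloid cells.

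Il11ra1, which encodes the IL-11 binding chain, had the highest level of the 10 genes in matrix cells. It was at 5 FPKM or more in 149 of 198 matrix cells (75.3%, interval 68.6 to 81.1%), 20 of 57 mural cells (35.1%, 22.9 to 48.9%) and 6 of 26 myeloid cells (23.1%, 8.97 to 43.7%). The matrix captures ranged from 114.5 to 433.9 FPKM with a median of 192.8. The mural captures had 40.2, 13.9 and 94.2 at PWD12, 38.7 at PWD15 and 49.4 at PWD21, and the myeloid captures 20.7, 13, 61.6 and 2.70. Every matrix capture was above every capture of the other kinds. Myeloid against matrix cells gave -3.47 (SE 0.75, adjusted p = 0.00815 in limma), or -2.62 less the median of all genes, lower in 4 of 4 captures, and -5.78 (adjusted p = 0.00314) without the 4 doubtful myeloid cells. Those cells were left out for a matrix gene, so the larger difference is no separate support. Without them the myeloid mean of capture 1 of PWD21 went from 61.6 to 0 FPKM. Mural against matrix cells gave -2.78 (SE 0.68, adjusted p = 0.0804), lower in 5 of 5 captures, and passed when capture 2 of PWD21 was left out (-2.56, adjusted p = 0.0344). The values of Il11ra1 are uncertain, because 46.3% of the 50-base words of its transcripts also occur in the copy Gm13305 and 15.8% in Il11ra2, and because its annotated span overlaps other genes, among them Galt, Dctn3, Arid3c, Rpp25l and Ccl27a. The reads had mostly been assigned to Il11ra1, since Il11ra2 had a mean of 0.0712 FPKM and Gm13305 of 0.0582 in matrix cells.

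Il6ra, the IL-6 binding chain, was rare outside myeloid cells. It was at 5 FPKM or more in 5 of 26 myeloid cells (19.2%, interval 6.56 to 39.4%), 6 of 198 matrix cells (3.03%, 1.12 to 6.48%) and 0 of 57 mural cells, where up to 5.26% would still be possible. Above 0 it was found in 14, 11 and 2 cells. The myeloid captures had 15.2, 0, 0.09 and 2.28 FPKM, the matrix captures ranged from 0 to 1.80 with a median of 0.36, and the mural captures were at 0 except for 0.0625 at PWD21. The groups overlapped, and one myeloid capture held nearly all of the signal. Since Il6ra passed the low-value filter only through the myeloid cells, no test is given. An antisense gene, Gm42809, overlaps its start.

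Il10ra, the IL-10 binding chain, was found in myeloid cells alone among the 3 kinds. It was at 5 FPKM or more in 7 of 26 myeloid cells (26.9%, interval 11.6 to 47.8%) and above 0 in 9. It was at 0 in all 198 matrix cells and all 57 mural cells, counts that still allow 1.52% and 5.26%. The myeloid captures had 21.4 FPKM at PWD12, 0 at PWD15, and 168.2 and 162.9 at PWD21. The PWD15 myeloid capture, with 4 cells, was at 0 like the other kinds, so the groups overlapped there. No fold change is given, since it is listed at 0 in the other kinds. Because it passed the low-value filter only through the myeloid cells, no test is given either. Within captures it was higher in myeloid than in matrix cells in 3 of 4 and than in mural cells in 2 of 2.

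Ifngr1, the ligand-binding chain of the interferon gamma receptor, was found in every myeloid cell. It was above 0 in 26 of 26 myeloid, 135 of 198 matrix and 35 of 57 mural cells, and at 5 FPKM or more in 23 (88.5%, interval 69.9 to 97.6%), 85 (42.9%, 35.9 to 50.1%) and 21 (36.8%, 24.5 to 50.7%). The myeloid captures had 223.3, 10.5, 738.3 and 348.8 FPKM. The matrix captures ranged from 15.4 to 48.8 with a median of 35.3, and the mural captures had 71.4, 48.6 and 20.9 at PWD12, 8.46 at PWD15 and 6.95 at PWD21. The 3 other myeloid captures were above every capture of the other kinds and the PWD15 myeloid capture was below all matrix captures. The difference was 2.38 against matrix cells (SE 0.98, adjusted p = 0.116 in limma) and 3.18 against mural cells (SE 1.14, adjusted p = 0.120), and neither passed. Both passed without capture 2 of PWD15 (3.62, adjusted p = 0.0194, and 4.13, adjusted p = 0.0217). Without the 4 doubtful myeloid cells, 2 of them from that capture, the differences were 3.76 (adjusted p = 0.0153) and 4.28 (adjusted p = 0.0168). The myeloid mean of capture 2 of PWD15 is then out of the fit too, so this setting is not separate from the one before. The 2 myeloid cells left in that capture had a mean of 12.6 FPKM, still below every matrix capture.

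Of the pair of TNF receptors, Tnfrsf1a was found in all 3 kinds. It was at 5 FPKM or more in 74 of 198 matrix cells (37.4%, interval 30.6 to 44.5%), 25 of 57 mural cells (43.9%, 30.7 to 57.6%) and 14 of 26 myeloid cells (53.8%, 33.4 to 73.4%). Its captures ranged from 9.81 to 47.8 FPKM in matrix cells, from 7.65 to 116.5 in mural cells and from 14.7 to 249.8 in myeloid cells. These ranges overlapped, and no comparison passed, with adjusted p-values in limma of 0.873, 0.575 and 0.926 for mural against matrix, myeloid against matrix and myeloid against mural cells, the last pair at 0.743 and 0.992 without the 4 doubtful cells. Tnfrsf1b was at 5 FPKM or more in 12 of 26 myeloid cells (46.2%, 26.6 to 66.6%), 7 of 198 matrix cells (3.54%, 1.43 to 7.15%) and 3 of 57 mural cells (5.26%, 1.10 to 14.6%). The myeloid captures had 30.1, 18.7, 11.6 and 8.97 FPKM. The mural captures had 0, 9.83 and 0.429 at PWD12 and 0 at PWD15 and PWD21, and the matrix captures ranged from 0 to 15.2 with a median of 0.268. Within every shared capture myeloid cells were the higher, but the ranges overlapped. The matrix capture at 15.2 FPKM, with 1 cell of 246.1, lay above the lowest myeloid capture. So did the mural capture at 9.83 FPKM, with 1 cell of 62.3. Another matrix capture held 1 cell of 295.4 FPKM but lay below all myeloid captures, at 6.73. The difference was 3.20 against matrix cells (SE 0.91, adjusted p = 0.0299), or 4.05 less the median of all genes, and 3.95 against mural cells (SE 1.06, adjusted p = 0.0406), or 4.53 less the median. Both calls rested on few captures: the first was lost without capture 2 of PWD15, capture 1 of PWD21 or capture 2 of PWD21 (adjusted p up to 0.0908), the second without any capture but capture 2 of PWD12 (up to 0.141), and without the 4 doubtful cells the adjusted p-values were 0.0725 and 0.0556.

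Within a kind, the order of levels on the log2(mean FPKM + 1) scale was led by different genes. In matrix cells Il11ra1 (7.81 ± 0.73, SD, n = 7 captures) was followed by Il1r1 (5.92 ± 0.88), Ifngr1 (5.09 ± 0.50) and Tnfrsf1a (4.98 ± 0.82). Il11ra1 and Il1r1 differed by more than the SD of their difference over captures, whereas Il1r1 and Ifngr1, and Ifngr1 and Tnfrsf1a, did not. In mural cells Il1r1 (8.16 ± 0.45, n = 5) was followed by Il13ra1 (5.59 ± 0.83) at a distance larger than its SD, and then by Il11ra1, Tnfrsf1a and Ifngr1 without such gaps. In myeloid cells Ifngr1 (7.33 ± 2.64, n = 4) and Tnfrsf1a (6.11 ± 1.74) came first, and no neighbours in the order differed by more than the SD of their difference. Il10ra was last in matrix and mural cells and Il1rl1 last in myeloid cells.

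Between days, matrix cells had the 7 captures needed for a test, and 8 of the 10 genes passed the low-value filter, all but Il6ra and Il10ra. In limma 0 of the 8 passed for PWD15 against PWD12, against 0% of 13552 genes, 0 for PWD21 against PWD12, against 0.00738%, and 0 for PWD21 against PWD15, against 0%. At an unadjusted p under 0.05 the counts were 1, 2 and 1 of the 8 genes, and 791, 968 and 745 of all genes. Il1rl1 had the largest of these changes. It was at 5 FPKM or more in 14 of 74 matrix cells at PWD12, 7 of 72 at PWD15 and 0 of 52 at PWD21, a count that still allows 5.77%. The captures had 27.2, 28.8 and 15.1 FPKM at PWD12, 53.6 and 14.5 at PWD15, and 0.129 and 0.0494 at PWD21. Both PWD21 captures lay below all earlier ones, and the highest PWD21 cell had 0.51 FPKM. The median fragments of matrix cells were 1640699, 977237 and 2264644 on the 3 days, and the part of depth in the difference was not tested. The difference was -4.45 for PWD21 against PWD12 (SE 0.79, p = 0.000177 and adjusted p = 0.204 in limma) and -4.74 against PWD15 (SE 0.87, adjusted p = 0.435). The PWD15 level rested on few cells, since 1 cell held 44.4% of that day's sum.

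Il1r1 in matrix cells was lowest at PWD15. Its captures had 53.2, 158.3 and 79.7 FPKM at PWD12, 31.1 and 25.1 at PWD15, and 60.8 and 79.9 at PWD21, and 58 of 74, 29 of 72 and 32 of 52 cells had at least 5 FPKM. The PWD15 captures lay below all others, on the day with the lowest depth, whose part in the difference was not tested. PWD15 against PWD12 gave -1.61 (SE 0.54, p = 0.0131 and adjusted p = 0.706 in limma) and PWD21 against PWD15 gave 1.29 (SE 0.59, adjusted p = 0.887). Il4ra reached 5 FPKM in 11 of 74, 5 of 72 and 1 of 52 matrix cells, with captures of 16.9, 9.16 and 1.12 FPKM at PWD12, 5.32 and 0.479 at PWD15, and 0 and 0.292 at PWD21. Both PWD21 captures were below the others, and PWD21 against PWD12 gave -2.68 (SE 1.12, p = 0.0362 and adjusted p = 0.681). Il11ra1 had 192.8, 144.1 and 171.6 FPKM at PWD12, 433.9 and 114.5 at PWD15, and 331.5 and 357.6 at PWD21, a difference of 1.03 for PWD21 against PWD12 (SE 0.51, adjusted p = 0.723). Il13ra1, Tnfrsf1a, Tnfrsf1b and Ifngr1 had unadjusted p-values above 0.05 in each comparison of days.

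**Figure D3:**
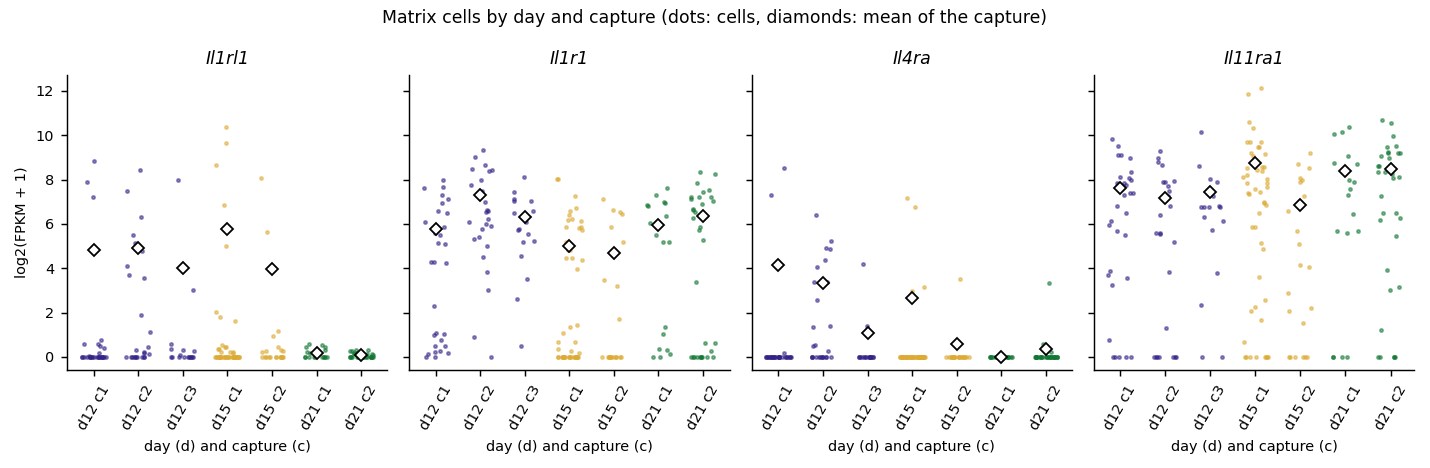
Level of Il1rl1, Il1r1, Il4ra and Il11ra1 as log2(FPKM + 1) in the matrix cells of each capture of PWD12, PWD15 and PWD21, with a dot for each cell and a diamond for the log2 of the mean FPKM plus 1 of the capture. Il1rl1 is between 14.5 and 53.6 FPKM in the 5 captures of PWD12 and PWD15 and at 0.129 and 0.0494 FPKM at PWD21.

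Mural cells could be compared only between PWD12 (3 captures) and the later days joined (2 captures). In limma 0 of 8 receptor genes passed, against 0% of 12704 genes, and 0 of the 8 had an unadjusted p under 0.05, beside 525 of all genes. Ifngr1 came nearest, with 71.4, 48.6 and 20.9 FPKM at PWD12 and 8.46 and 6.95 later, a difference of -2.30 (SE 1.07, adjusted p = 0.915). The later captures lay below all PWD12 captures. Whether the mural to matrix difference itself changed between PWD12 and later days was tested as an interaction, in which 0 of 8 genes passed, against 0% of 13823 genes. Ifngr1 was the 1 gene of the 8 with an unadjusted p under 0.05, at -2.71 (SE 1.14, p = 0.0408 and adjusted p = 0.914), beside 688 of all genes.

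Most of these receptors signal with a partner chain in the same cell, and detection of both was counted for 8 pairs of unlike chains. Both chains of at least 1 of them were above 0 in 169 of 198 matrix cells (85.4%), 43 of 57 mural cells (75.4%) and 23 of 26 myeloid cells (88.5%). With both chains at 5 FPKM or more the numbers were 94 (47.5%), 26 (45.6%) and 19 (73.1%). For IL-11, Il11ra1 with Il6st was found at 5 FPKM in 45 matrix cells (22.7%, interval 17.1 to 29.2%), 14 mural cells (24.6%, 14.1 to 37.8%) and 1 myeloid cell (3.85%, 0.0973 to 19.6%). For IL-1, Il1r1 with Il1rap was found in 28 matrix cells (14.1%), 9 mural cells (15.8%) and 0 of 26 myeloid cells, a count that still allows 11.5%. In mural cells the less often detected chain was Il1rap, at 5 FPKM or more in 10 cells where Il1r1 was in 48. For interferon gamma, Ifngr1 with Ifngr2 was found in 38 matrix cells (19.2%), 10 mural cells (17.5%) and 13 myeloid cells (50%, interval 29.9 to 70.1%).

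The pairs for IL-4, IL-10, IL-6 and IL-33 were scarce in matrix and mural cells. Il4ra with Il2rg, the type I form of the IL-4 receptor, was at 5 FPKM in 7 of 26 myeloid cells (26.9%), 4 of 198 matrix cells (2.02%) and 1 of 57 mural cells (1.75%). Il4ra with Il13ra1, the type II form that also binds IL-13, was in 4 myeloid, 7 matrix and 0 mural cells, where Il13ra1 alone was in 33 mural cells. Il10ra with Il10rb was in 5 myeloid cells and in 0 of the others. Il6ra with Il6st was in 1 matrix cell and in 0 mural and 0 myeloid cells, and Il1rl1 with Il1rap in 4 matrix, 1 mural and 0 myeloid cells. Tnfrsf1a and Tnfrsf1b, which work apart from each other, were together in 7 myeloid, 5 matrix and 2 mural cells. On average a matrix cell had 3.85 of the 10 genes above 0 (SD 0.73 over 7 captures), a mural cell 3.83 (SD 0.91, 5 captures) and a myeloid cell 5.23 (SD 0.74, 4 captures), and at 5 FPKM or more these numbers were 2.66, 2.68 and 3.42.

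**Figure D4:**
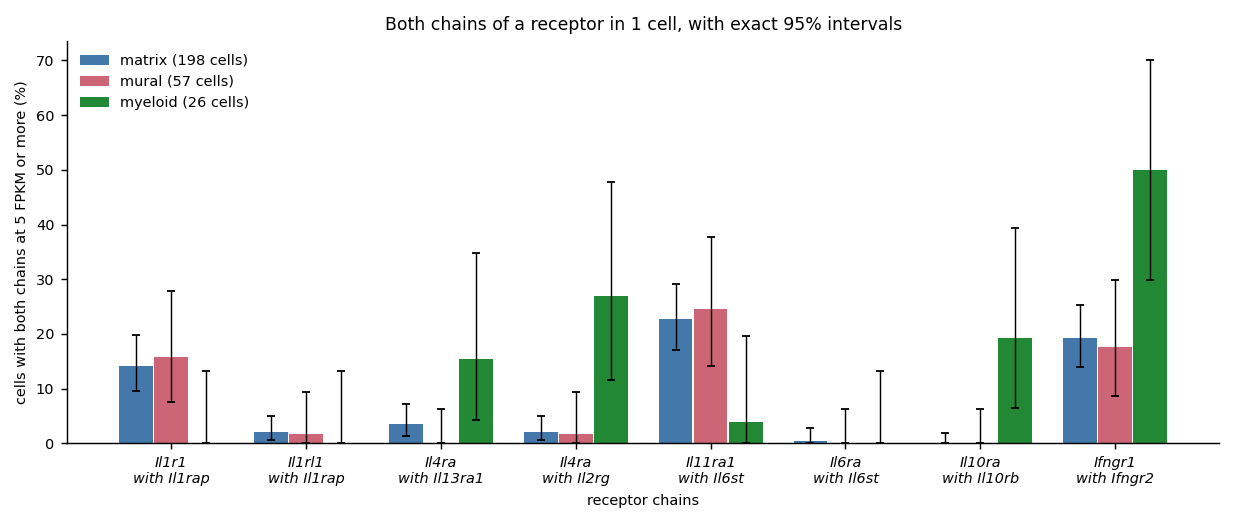
Percent of the cells of a kind with both chains of a receptor at 5 FPKM or more, with exact Clopper-Pearson intervals at 95% as bars, for matrix (198), mural (57) and myeloid (26) cells. Il11ra1 with Il6st reaches 22.7% and 24.6% in matrix and mural cells and 3.85% in myeloid cells, and Ifngr1 with Ifngr2 reaches 50% in myeloid cells.

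The partner chains, tested from a list of 8 genes of which 6 passed the low-value filter, had calls in both directions. For myeloid against matrix cells 1 of the 6 was higher and 1 lower, beside the 2.14% and 13.6% of genes given above. Il2rg, the common gamma chain, was higher by 5.47 (SE 1.2, adjusted p = 0.00867 in limma), and Il1rap was lower by a difference of -3.44 (SE 0.80, adjusted p = 0.0121), lower in 4 of 4 captures. Leaving out either PWD21 capture ended the Il1rap call (adjusted p up to 0.069). For myeloid against mural cells 0 were higher and 1 lower, beside 1.36% and 4.6% of genes, namely Il6st at -4.66 (SE 0.92, adjusted p = 0.00785). Without the 4 doubtful myeloid cells Il2rg, Il1rap and Il6st had adjusted p-values of 0.023, 0.0135 and 0.00442 in these comparisons. For mural against matrix cells 0 of 6 passed, with Il6st at 2.69 (SE 0.72, adjusted p = 0.107). Il10rb was at 2.66 for myeloid against matrix cells (SE 0.93, adjusted p = 0.0679). The IL-1 decoy gene Il1r2 was above 0 in 19 matrix, 6 mural and 1 myeloid cell.

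Of 12 ligand genes, 6 passed the low-value filter, Il1b and Tnf only through the myeloid cells, so that these 2 are described without a test. Il1b, the ligand of Il1r1, was above 0 in 9 of 26 myeloid cells, 1 of 198 matrix cells and 0 of 57 mural cells. Tnf, which binds both TNF receptors, was above 0 in 12 myeloid, 2 matrix and 0 mural cells. Of the other 4 ligands 0 were higher and 1 lower in myeloid than in matrix cells, against 2.14% and 13.6% of genes, and 0 were higher and 1 lower than in mural cells, against 1.36% and 4.6%. The 1 was Il6, above 0 in 31 matrix, 19 mural and 2 myeloid cells, with -3.83 for myeloid against matrix (SE 1.13, adjusted p = 0.0344) and -7.08 for myeloid against mural cells (SE 1.31, adjusted p = 0.0053). The first of these Il6 calls ended without capture 2 of PWD12 or either PWD21 capture (adjusted p up to 0.138) and the second without capture 2 of PWD12 (0.0668), and without the 4 doubtful cells the adjusted p-values were 0.0165 and 0.00247. Il33, the ligand of ST2, was above 0 in 35 matrix, 5 mural and 1 myeloid cell, and Il13, Lta and Ifng were at 0 in every cell of the 3 kinds. For mural against matrix cells 0 of the 4 ligands passed, with Il6 at 3.25 (SE 1.02, adjusted p = 0.176).

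**Figure D5:**
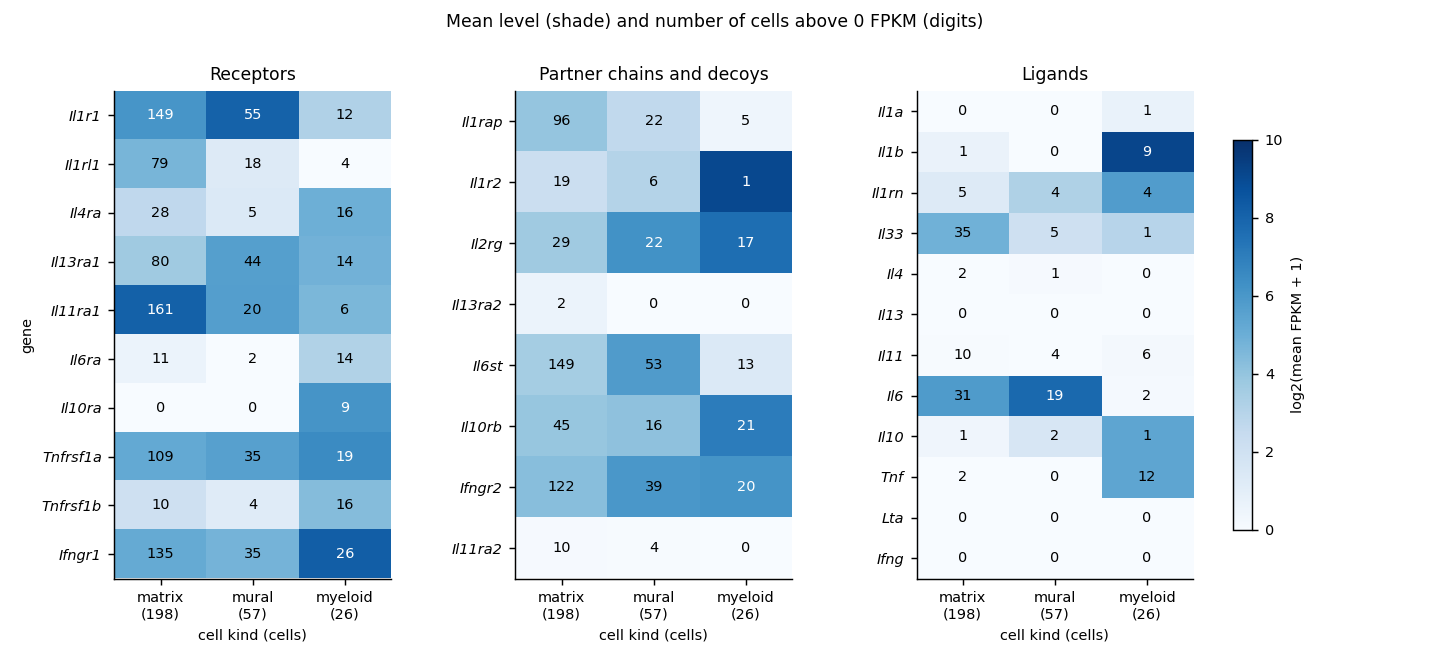
Levels and detection of the 10 receptor genes, 8 partner or decoy chains and 12 ligands in matrix (198), mural (57) and myeloid (26) cells, with the shade as log2 of the mean FPKM over all cells plus 1 and the digits as the number of cells above 0 FPKM. Il1b is above 0 in 9 myeloid cells and 1 matrix cell, and the dark Il1r2 field of myeloid cells comes from 1 cell.

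Of 16 other cytokine receptors 14 were tested, and those that passed the low-value filter without the kinds compared were 13, 12 and 13 for myeloid against matrix, myeloid against mural and mural against matrix cells. In myeloid cells 1 was higher and 5 lower than in matrix cells, against 2.14% and 13.6% of genes, and 1 higher and 3 lower than in mural cells, against 1.36% and 4.6%. In mural cells 1 was higher and 0 lower than in matrix cells, against 0.486% and 0.235%. The last was the death receptor gene Tnfrsf21, at 4.99 (SE 0.64, adjusted p = 0.00109 in limma), higher in 5 of 5 captures. Osmr, the oncostatin M receptor chain that also pairs with gp130, was at -3.26 for myeloid against matrix (adjusted p = 0.00673) and -4.81 for myeloid against mural cells (adjusted p = 0.00228). Csf1r, the receptor that macrophages need for survival, was at 6.13 for myeloid against matrix (adjusted p = 0.000662) and 6.74 for myeloid against mural cells (adjusted p = 0.00111). Csf2rb passed the filter only through the myeloid cells and was above 0 in 19 of 26 myeloid, 6 of 198 matrix and 6 of 57 mural cells. Lower in myeloid than in matrix cells were also Il15ra at -5.88 (adjusted p = 0.00126), Ltbr at -2.98 (adjusted p = 0.0191) and Il1rl2 at -2.56 (adjusted p = 0.0304), together with Il17rc, which is listed at 0 in the myeloid captures. Myeloid against mural cells also gave Il15ra at -4.01 (adjusted p = 0.0383) and Tnfrsf21 at -3.98 (adjusted p = 0.0108). Several of these calls rested on single captures: Ltbr ended without capture 2 of PWD21 (adjusted p = 0.0799), Il1rl2 without any of the 4 captures with myeloid class means (up to 0.0912), Il15ra against mural cells without 5 captures, all but captures 1 and 3 of PWD12 (up to 0.169), and Tnfrsf21 against mural cells without capture 1 of PWD21 (0.0647). Of 15 signalling genes, 14 passed the filter without matrix or myeloid cells, and Irak4 was the 1 that passed the test between these kinds, at 2.03 (adjusted p = 0.041, lost without any capture but capture 2 of PWD15, up to 0.135). Of 13 response and feedback genes 10 were tested, 8 or 9 of them apart from the kinds compared, and the chemokine gene Cxcl1 was the 1 that passed, at 2.97 for mural against matrix cells (adjusted p = 0.0413, lost without any of the 5 captures with mural class means, up to 0.138) and at -5.02 for myeloid against mural cells (adjusted p = 0.00216). Without the 4 doubtful cells the myeloid calls named in this paragraph passed as well, with adjusted p-values up to 0.0448. In the comparisons of days 0 genes of these lists passed, with 2, 5 and 4 of 45 at an unadjusted p under 0.05 in matrix cells, beside the 791, 968 and 745 of 13552 genes given above.

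Over the 16 class means and 14022 genes, the genes most like each receptor by Pearson's r of log2(mean FPKM + 1) had r between 0.836 and 0.996. The class means share captures and differ in cell number, so these values are descriptions. Osmr (r = 0.948) and Igfbp7 (0.946) were most like Il1r1, Slit2 (0.952) most like Il11ra1, and Apex2 (0.951) and the tenascin gene Tnn (0.901) most like Il1rl1. For Il10ra it was the C-type lectin gene Clec4b1 (0.996), for Il6ra Gm16372 (0.942), for Il4ra Mpp1 (0.900), for Ifngr1 Hps3 (0.883), for Tnfrsf1b the leukocyte antigen gene Cd52 (0.862), for Il13ra1 Ppme1 (0.861) and for Tnfrsf1a Flcn (0.836). Among the 10 receptors themselves Il10ra and Ifngr1 were most alike (0.862) and Il1r1 and Il10ra least (-0.670). Il10ra was at 0 in every matrix and mural class mean, so its values of r rest on the 3 myeloid captures above 0.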

How the data were processed

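Single-cell RNA-seq tables of 7 C1 captures were used (3 at PWD12, 2 at PWD15, 2 at PWD21). Per the labels and methods, the authors aligned paired reads to mm10 with Bowtie 1.0.0 and quantified GENCODE genes with RSEM. The unit is not named, and the deposited values were read as FPKM from their totals and their fall with transcript length. FPKM scales by transcript length and by the cell's total, so a few abundant genes lower all others. Counts are not used here. Of 50600 identifiers 50376 had a symbol in a later GENCODE release of the same build. The number of columns of no sample was 0, and no pair of cells had identical columns. The descriptions of the 40 cells of capture 3 of PWD12 name the table of capture 2, and the table numbered 3 of that day, with 40 columns named by the ends of their titles, was taken as theirs.

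Cells below 159000 estimated fragments (27), above 11000 genes (1) or with over 15% mitochondrial FPKM (47) were left out. Fragments were estimated from steps between FPKM values of single-transcript genes of at least 1000 bases with an assumed fragment length of 300 bases, and the estimate was tested on simulated cells. No doublet caller was run. Cells of a kind were averaged per capture (at least 3 cells), and log2(mean FPKM + 1) was fitted in limma 3.58.1 (R 4.3.3, variance trend, capture as a block for kinds) over genes whose mean reached 1 FPKM, with two-sided p-values adjusted by Benjamini and Hochberg over all genes tested and a threshold of 0.05. The script was tested on simulated data. Such differences understate changes of low genes. Depth limits low values, and a cell share of 0 of N allows up to 3 of N. Python 3.11.15 with numpy 2.4.6, pandas 2.3.3 and scipy 1.17.1 was used.

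Named are the 10 receptors, genes of 5 lists (partner chains and decoys, ligands, other receptors, signalling, response and feedback) past the threshold, at most 10 a comparison, partner chains, and the most alike genes. The receptors, lists and motifs were chosen with earlier results of these data known. Alternatives were the pseudocount, filters, kind thresholds, summary, scaling, weights, blocks and captures left out. Leaving out the 4 myeloid cells with at least 1000 FPKM of Col1a1 was chosen after the data were seen. So was giving no test for genes that pass the low-value filter only through a kind compared.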

Additional observations from a re-analysis of the deposited data

Results flagged for a closer look

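Of 28 sets of class means of a receptor in a kind, 9 had 1 capture far from the others. Chance gives about 1 in 20 for normally distributed values, which these means, several at or near 0, need not be. In matrix cells Il1r1 was at 158.3 FPKM in capture 2 of PWD12 (26 cells), with the next capture at 79.9, and Il6ra was at 1.795 FPKM in capture 1 of PWD12 (31 cells), with the next at 0.633. In mural cells Il1rl1 was at 8.591 FPKM in capture 1 of PWD21 (8 cells) against 0.223 in the next, and Il6ra at 0.0625 FPKM there against 0 elsewhere. Capture 2 of PWD12, with 7 mural cells, had 12.37 FPKM of Il4ra (next 0.201) and 9.826 FPKM of Tnfrsf1b (next 0.429). In myeloid cells Il13ra1 was at 122.2 FPKM in capture 1 of PWD21 (5 cells, next 6.68), and capture 2 of PWD12 (11 cells) had 15.18 FPKM of Il6ra (next 2.28) and 0.04545 FPKM of Il1rl1 (0 elsewhere).

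The 11 cells that met no rule of a kind entered no comparison. At 5 FPKM or more Il11ra1 was found in 5 of them (45.5%, mean 252.5 FPKM), Tnfrsf1a in 4 (36.4%, mean 52.4) and Ifngr1 in 6 (54.5%, mean 53.4).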

How the results depend on the processing

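The numbers of receptors past the threshold, here counted over all 10 genes with Il10ra, were small and moved with the settings. Il10ra passed the low-value filter only through the myeloid cells, so its calls there are no support. They make the counts steadier, since Il10ra passed in 20 of 20 alternatives against matrix and 17 of 20 against mural cells. The counts over all genes are given in the next paragraph. For mural against matrix cells the main number of 0 became 2 with a pseudocount of 10, 1 with all cells, 2 with the mean of log2 values, 1 with a minimum of 5 cells, 3 with weights by cell number and 2 with those kinds alone. Without each capture in turn it was 0 to 1. The 1 without capture 1 of PWD21 was Il1rl1, which then passed the low-value filter only through the matrix cells. For myeloid against matrix cells 4 became 2 with a minimum of 5 cells and 2 with those kinds alone, and 3 to 4 without each capture. For myeloid against mural cells 4 became 2 with a pseudocount of 10 and 1 without the low-value filter, and 2 to 4 without each capture. The causes were not tested. The mean number of receptors per cell was 3.12 in matrix and 4.15 in myeloid cells at 1 FPKM or more, and 2.66, 2.68 and 3.42 in matrix, mural and myeloid cells at 5 FPKM, where both chains of a receptor were in 47.5% of matrix and 45.6% of mural cells. The 25 receptor differences followed were those with the lowest unadjusted p in the main setting, so they do not speak for the others. They include Il10ra and Il6ra in myeloid cells, whose direction the low-value filter fixed. Of these 25, 409 alternatives kept direction and side of the threshold, 40 lost the call, 23 gained it and 0 reversed. Among the differences not followed, the sign turned under at least 1 alternative for Il13ra1 and Tnfrsf1a in myeloid against matrix cells. It also turned for Il11ra1, Il1rl1 and Tnfrsf1a in myeloid against mural cells, and no direction is given for these. Between days signs turned too, for Tnfrsf1b of PWD15 against PWD12 in 7 of 18 alternatives.

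Over all genes, the number past the threshold was 147 for mural against matrix cells (48 to 614 under other settings, 47 to 154 without a capture), 2200 for myeloid against matrix (829 to 3042, 1287 to 1951), 918 for myeloid against mural (308 to 2031, 466 to 973), and 0, 1 and 0 for PWD15 against PWD12, PWD21 against PWD12 and PWD21 against PWD15 (at most 28, 70 and 1). With the capture number as a replicate block, 0 receptors passed in each comparison of days. Captures share only a number, since deviations of same-numbered captures correlated between -0.00685 and 0.025. Depth limits the low receptors: a value under 5 FPKM can rest on few fragments.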
